A study of Mus musculus with 5 samples.

Results

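The neonatal myosin heavy chain gene *Myh8* and the ryanodine receptor gene *Ryr3* each carried NFATC2 (NFAT1) peaks in regenerating myofibers, in both of the Mfn2-/- libraries and in no wild-type library. The members are all peaks whose deposited gene symbol is Myh8 or Ryr3, which gave 5 of the 726 peaks in the 4 lists: 3 at *Myh8* and 2 at *Ryr3*. These genes were chosen from the measured values, because their peaks were called only in the Mfn2-/- libraries, so presence in a genotype is given as a description, with no test. NFATC2 occupancy was profiled by ChIP-seq, the sequencing of DNA fragments pulled down with an antibody to the factor, in myofibers of the tibialis anterior (TA) muscle of adult mice. Each genotype had 2 libraries, and an input library from wild-type myofibers (no antibody) was not analysed here. Mice of either genotype received the same handling: 75 mg/kg tamoxifen daily for 5 days, an injection of 50 μL of 1.2% BaCl2 into the muscle 2 days after the last dose, and dissection of Dendra2+ myofibers at 14 days post injury (dpi). The Pax7-Cre(ERT2) driver and a mito-Dendra2 allele were shared by the genotypes, and a floxed Mfn2 allele was added in the Mfn2-/- group. Pax7 marks muscle stem cells, so that recombination was induced in these cells and inherited by the fibers they form. Whether a library came from 1 animal or several is not stated in the sources used here. The lists hold no reads, so neither the Mfn2 deletion nor the cell type could be checked from them, and the depth of each library is unknown.

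Myosin heavy chains are the motor proteins of the contractile apparatus. Most of the skeletal muscle forms sit side by side in a gene cluster, and new fibers use *Myh3* (embryonic), then *Myh8* (neonatal), before adult fast forms such as *Myh2*, *Myh1*, and *Myh4* take over. Ryanodine receptors are calcium release channels of the sarcoplasmic reticulum. *Ryr1* is the main form in adult skeletal muscle, *Ryr2* is the cardiac form, and *Ryr3* is found in developing muscle and declines in most muscles after birth. NFATC2 is a transcription factor that enters the nucleus when calcium activates the phosphatase calcineurin, and the core of the sequence it binds is GGAAA.

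The authors deposited the peaks of each library separately. The score of a peak is −log10 of the p-value from the peak caller, multiplied by 10. It rises with depth as well as enrichment and was not scaled between libraries. The weakest peak of each list scored between 50.01 and 50.06. Loci below that cutoff have no value, and no fold difference between genotypes can be computed where a list has no peak. For wild-type the lists of replicates 1 and 2 contained 226 and 212 peaks, and for Mfn2-/- they contained 127 and 161. The median score ran from 54.1 to 57.0, and the median width (end minus start) from 561.5 bp to 619 bp. Positions are given on mm10, the build named in the submitters' processing notes.

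The promoter of *Myh8* is shown first, since the authors classed all 3 *Myh8* peaks as lying within 1 kb of a transcription start. The window, from RefSeq on GRCm38.p6 (the assembly known as mm10), covers 250 bases before to 50 bases after the start, on the plus strand. It is set beside the windows of *Myh1*, the adult type IIx myosin, and *Myh3*, the embryonic myosin, neither of which had a peak. Capitals in *Myh8* and *Myh1* mark the longest run of letters that these windows share, and capitals in *Myh3* mark GGAAA or its reverse complement.
Myh8, chr11:67276874-67277173: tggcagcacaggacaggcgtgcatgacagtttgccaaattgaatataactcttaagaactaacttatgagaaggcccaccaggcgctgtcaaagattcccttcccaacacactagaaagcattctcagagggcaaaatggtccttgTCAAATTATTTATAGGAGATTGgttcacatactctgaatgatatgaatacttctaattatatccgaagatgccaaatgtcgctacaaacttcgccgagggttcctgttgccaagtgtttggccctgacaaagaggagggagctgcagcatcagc
Myh1, chr11:67199852-67200151: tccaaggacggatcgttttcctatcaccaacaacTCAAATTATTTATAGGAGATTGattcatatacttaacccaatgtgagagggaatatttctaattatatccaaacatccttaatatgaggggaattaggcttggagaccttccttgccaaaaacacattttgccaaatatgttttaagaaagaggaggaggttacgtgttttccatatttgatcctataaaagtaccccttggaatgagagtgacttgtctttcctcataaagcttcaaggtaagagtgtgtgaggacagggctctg
Myh3, chr11:67078050-67078349: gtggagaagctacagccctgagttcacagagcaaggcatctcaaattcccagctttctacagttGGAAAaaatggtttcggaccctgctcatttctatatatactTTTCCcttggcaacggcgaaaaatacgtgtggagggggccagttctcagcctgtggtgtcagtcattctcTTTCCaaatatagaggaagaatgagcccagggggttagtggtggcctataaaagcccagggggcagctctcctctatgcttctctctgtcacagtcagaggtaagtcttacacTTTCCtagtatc
The *Myh8* window held 0 matches to GGAAA on either strand. Of all 32851 windows of this length, 61.3% held at least 1 match. In the same cluster, *Myh3* had 4 matches, *Myh1* had 3, *Myh2* had 1, and *Myh4* and *Myh13* had 0. The longer TGGAAA, which contains GGAAA, was found in 21.4% of windows and also had 0 matches in *Myh8*. The E-box CANNTG, the core of sites bound by MyoD and myogenin, had 2 matches in *Myh8* and at least 1 in 72.3% of windows. The hypoxia response core, ACGTG or GCGTG, had 1 match in *Myh8*, a GCGTG that begins 234 bases before the start, and at least 1 in 43.8% of windows. *Myh3* and *Myh1* also had 1 match to this core each, and *Myh2*, *Myh4*, and *Myh13* had 0. ACGTG alone had 0 matches in *Myh8* and was found in 19.6% of windows. The degenerate MEF2 consensus had 1 match in *Myh8*, which begins 99 bases before the start, inside the run in capitals, and at least 1 in 3.19% of windows. *Myh1* and *Myh4* also had 1 match to it each, and *Myh3*, *Myh2*, and *Myh13* had 0. Another MEF2 form (CTA, any 4 bases, TAG), found in 3.69% of windows, had 0 matches in all 6 genes. GCGTG and the degenerate MEF2 consensus were searched after the sequences were seen. The run shared with *Myh1* was 22 bases long and began 104 bases before the *Myh8* start and 216 bases before the *Myh1* start, and the longest run shared with *Myh4* was 17 bases. The comparison of runs was chosen after the sequences were seen. These letters describe the window printed and not the DNA under the peaks, which lies further into the gene.

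On chromosome 11, the *Myh8* peak (ENSMUSG00000055775) spanned positions 67278126 to 67280080 in Mfn2-/- replicate 2. Mfn2-/- replicate 1 had a pair of peaks there, from 67278188 to 67278925 and from 67279073 to 67280076, with a gap of 148 bp between them. Both of these lay inside the single peak of replicate 2. The outer edges of the replicates differed by 62 bp at the start and by 4 bp at the end, and 96.6% of the replicate 2 peak was spanned in replicate 1. Measured from the RefSeq start of *Myh8* at 67277124, the peak of replicate 2 ran from 1002 bp to 2956 bp downstream. The peaks of replicate 1 ran from 1064 bp to 1801 bp and from 1949 bp to 2952 bp. All 3 thus lay within the gene, 953 bp or more past the end of the printed window, although their deposited class was promoter within 1 kb. The same was seen at other genes. Of 32 other peaks of that class whose gene has a start in the RefSeq table used here, 20 also lay more than 1 kb from it, or 62.5%. The authors' annotation named Ensembl genes, and the start behind each class was not analysed here.

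**Figure D1:**
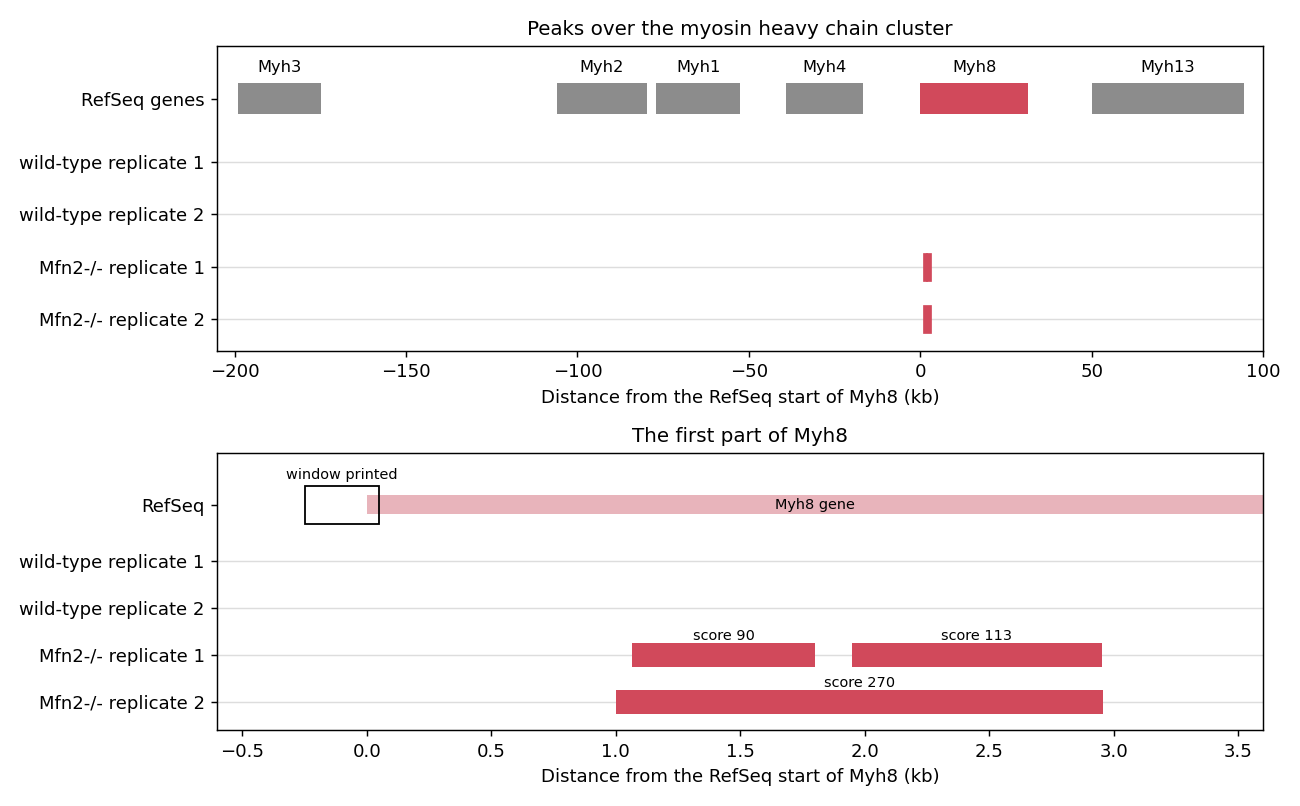
The upper panel plots RefSeq genes of the myosin cluster and all peaks of the 4 libraries against distance from the *Myh8* start in kb, with peak bars outlined to be visible, and the lower panel shows the first part of *Myh8* to scale with the score of each peak. Peaks appear in the Mfn2-/- rows only, between 1002 bp and 2956 bp past the start, and the 2 peaks of replicate 1 fall within the single peak of replicate 2.

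The score at *Myh8* was 90.0 and 113 for the peaks of Mfn2-/- replicate 1 and 270.0 for the peak of replicate 2. With the higher of the pair in replicate 1, the mean was 192 ± 111 (SD, n = 2), so that the replicates differed 2.39-fold. In replicate 1 these peaks ranked 14 and 18 of 127 by score. In replicate 2 the peak ranked 8 of 161. The higher peak of replicate 1 stood at 1.98 times the median of that list, and the peak of replicate 2 at 4.93 times its median. The *Myh8* signal was therefore above most peaks in either list, but its place was less even between replicates than that of *Ryr3*. Among peaks classed as promoter within 1 kb, *Myh8* ranked 3 of 14 in replicate 1 and 2 of 12 in replicate 2. The highest peak of that class was at Hif1a, which encodes the oxygen-regulated transcription factor HIF1α, with scores of 980 and 932 in replicates 1 and 2.

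The *Ryr3* peak (ENSMUSG00000057378) lay on chromosome 2 from 113174295 to 113176672 in Mfn2-/- replicate 1 and from 113174112 to 113176863 in Mfn2-/- replicate 2. The starts differed by 183 bp and the ends by 191 bp, and the replicate 1 peak was contained in that of replicate 2, covering 86.4% of it. The authors placed it in intron 1 of 102. In RefSeq the gene spans 586 kb, from 112631354 to 113217405. The peak lay 40.5 kb to 43.3 kb from the upper edge of the gene and 543 kb from the lower edge.

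**Figure D2:**
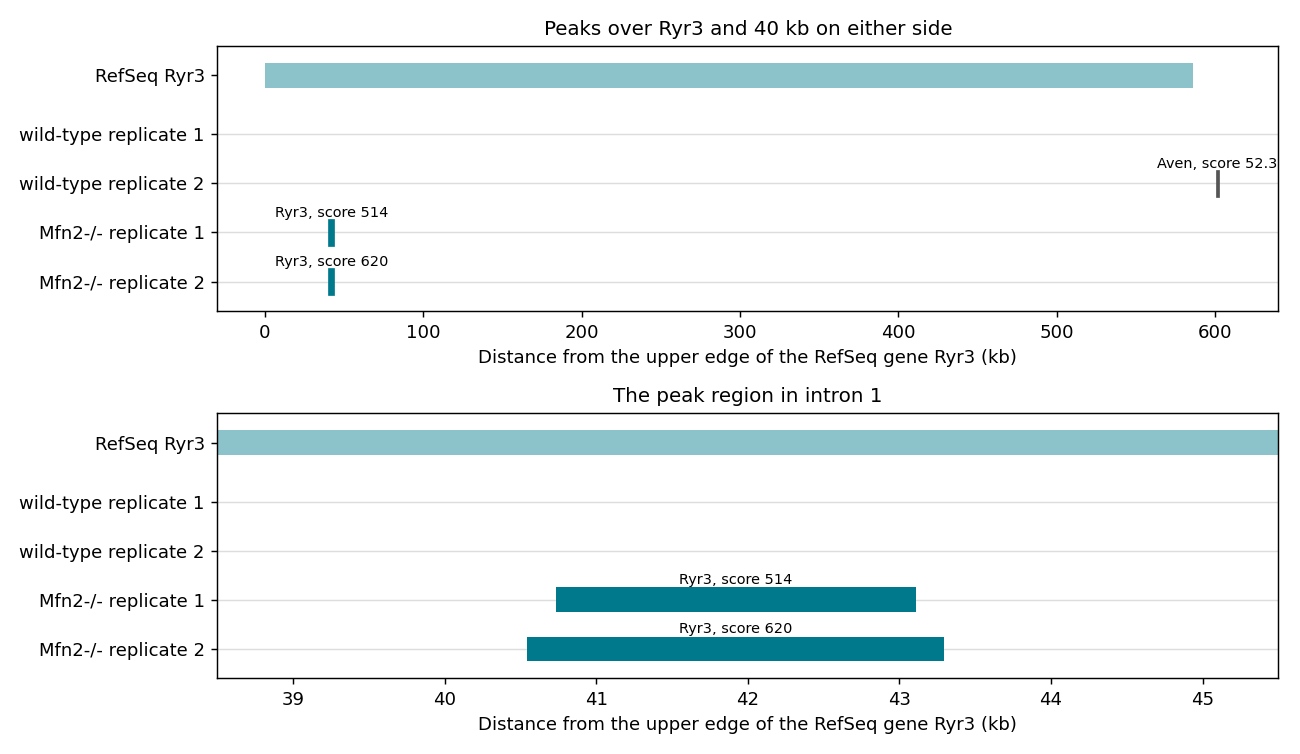
Peaks of the 4 libraries are plotted over *Ryr3* and its flanks (upper panel, bars outlined to be visible) and to scale around the peak region (lower panel), against distance from the upper edge of the RefSeq gene in kb. The Mfn2-/- libraries share a region between 40.5 kb and 43.3 kb, and the wild-type rows hold only an Aven peak of score 52.3 beyond the other end of the gene.

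The *Ryr3* score was 514 in Mfn2-/- replicate 1 and 619.8 in replicate 2, a mean of 567 ± 74.6 (SD, n = 2). It ranked 4 in each list, of 127 and of 161 peaks. Only the 2 Hif1a peaks and a peak annotated to 9230019H11Rik scored higher in either list. The score was 9.02 and 11.3 times the list median. *Ryr3* was the highest of 38 intronic peaks in replicate 1 and of 57 in replicate 2. The next intronic peaks were at 2210408I21Rik with a score of 84.4 in replicate 1 and at Chl1 with 85.5 in replicate 2, so that the *Ryr3* score was 6.10 and 7.25 times as high. The Chl1 region scored 144 in replicate 1, where its peak was not classed as intronic, so these ratios depend on the class. Within a list, *Ryr3* also scored above *Myh8*, 4.55 times in replicate 1 and 2.30 times in replicate 2.

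**Figure D3:**
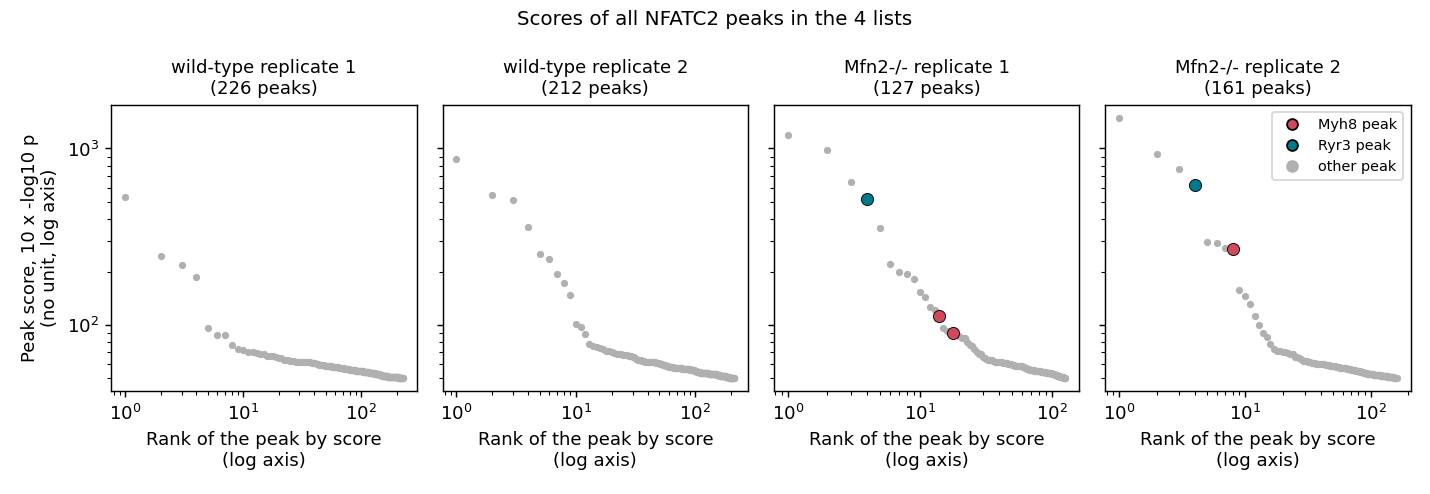
Each panel plots the score of every peak in a list (10 times −log10 p, log axis) against its rank (log axis), with *Myh8* and *Ryr3* peaks in color. *Ryr3* stands at rank 4 in both Mfn2-/- lists, and *Myh8* at ranks 14 and 18 in replicate 1 and 8 in replicate 2.

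The *Ryr3* peaks and the *Myh8* peak of replicate 2 were among the 5 widest of their lists, and the *Myh8* peaks of replicate 1 were closer to the median. Chromatin had been sheared to about 500 bp. The *Ryr3* peak was 2377 bp and 2751 bp wide in Mfn2-/- replicates 1 and 2, or 4.06 and 4.44 times the median width of the list, and ranked 4 and 2 by width. The *Myh8* peaks of replicate 1 were 737 bp and 1003 bp wide, or 1.26 and 1.71 times the median, and ranked 24 and 15 of 127 by width. In replicate 2 the peak was 1954 bp wide, or 3.16 times the median, and ranked 5 of 161. Per kb of width, the *Ryr3* scores were 216 and 225. The *Myh8* scores per kb were 122 and 113 in replicate 1 and 138 in replicate 2, so that the replicates differed less per kb than in score. Wide and high-scoring peaks were not limited to these genes. Of peaks at least 1954 bp wide, wild-type replicate 1 had 7 with scores from 50.5 to 64.7, and wild-type replicate 2 had 2 with scores from 53.7 to 67.2. Mfn2-/- replicate 1 had 4 with scores from 93.0 to 649.6, of which 1 was a member (*Ryr3*), and Mfn2-/- replicate 2 had 5 with scores from 112 to 765, of which 2 were members.

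**Figure D4:**
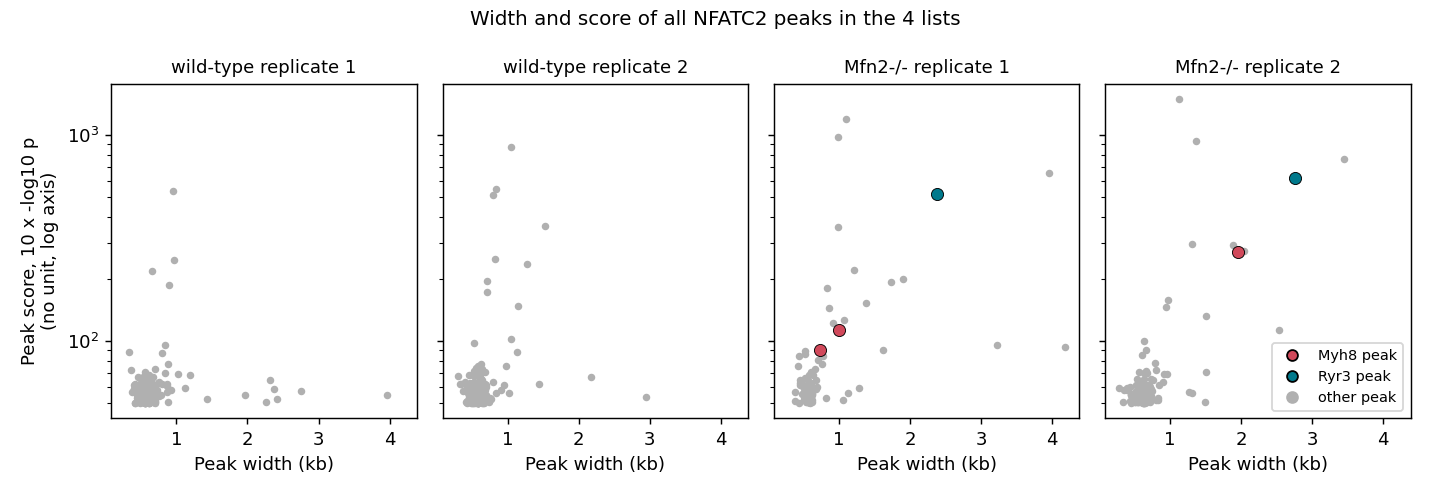
Each panel plots the score of every peak (log axis) against its width in kb for 1 list, with *Myh8* and *Ryr3* in color. In the Mfn2-/- lists the *Ryr3* peak is both wide (2377 bp and 2751 bp) and high-scoring, and the wide peaks of the wild-type lists stay at or below 67.2.

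Wild-type lists had no peak within either gene. The closest peak to the *Myh8* region was 5082 kb away in wild-type replicate 1, at Specc1, and 22827 kb away in wild-type replicate 2, at Gm11494. From the *Ryr3* region these distances were 1387 kb (Dph6) and 558 kb (Aven), the latter peak lying 14.9 kb beyond the lower edge of the gene. The deposited lists skip some of the caller's peak numbers, 24 in wild-type replicate 1 and 31 in wild-type replicate 2, so that a peak could have been called and then left out. The numbers run in genome order within each chromosome in all 4 lists. Around *Myh8*, the flanking peaks of wild-type replicate 1 were numbered 44 and 45, and those of wild-type replicate 2 were numbered 36 and 37. Around *Ryr3* they were numbered 142 and 143, and 130 and 131. With 0 numbers missing in these 4 intervals, and the numbers in genome order, no numbered wild-type peak at these loci was left out of its list. In the Mfn2-/- lists also, 0 numbers were missing between the members and their neighbors, and the nearest other peaks lay 1646 kb or more from *Myh8* and 7422 kb or more from *Ryr3*.

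Peaks of the 4 lists that overlapped by at least 1 bp were joined into 680 regions. Of these, 10 were found in each Mfn2-/- list and in no wild-type list, which is 1.47% of all regions, and the *Myh8* and *Ryr3* regions are 2 of the 10. Membership in this class fixed the choice of these genes and is not a finding, and ranks within it are given as a description. The opposite class, found in each wild-type list and in no Mfn2-/- list, held 4 regions, or 0.588%. By mean score *Ryr3* was the second and *Myh8* the sixth of the 10. Within this class of 10, the regions nearest to *Ryr3* in mean score (567) were both at 9230019H11Rik, with 707 and 258, followed by 2010315B03Rik with 246. Those nearest to *Myh8* (192) were at Psmb1 with 234, a proteasome subunit gene, at 9230019H11Rik with 142, and at 2010315B03Rik with 246. Likeness here is the difference in mean score over 2 libraries.

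The score was higher in Mfn2-/- replicate 2 than in replicate 1 at both genes, 2.39-fold at *Myh8* and 1.21-fold at *Ryr3*. It was also higher in replicate 2 at all 10 regions of the class, with a median ratio of 1.43 and a range from 1.18 to 2.49. At the 5 regions shared by all 4 lists, it was higher in replicate 2 at 1, and the median ratio was 0.597. The ratio at *Myh8* was thus near the upper end of its class and that at *Ryr3* near the lower end. The *Myh8* ratio sets the whole peak of replicate 2 against only the higher of the 2 peaks in replicate 1. Per kb of width, the *Myh8* scores were 122 and 113 in replicate 1 and 138 in replicate 2. Of the 10 regions, 3 are neighbors at 9230019H11Rik, and of the 5 regions, 2 are neighbors at Hif1a, so that neither set is made of independent loci.

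**Figure D5:**
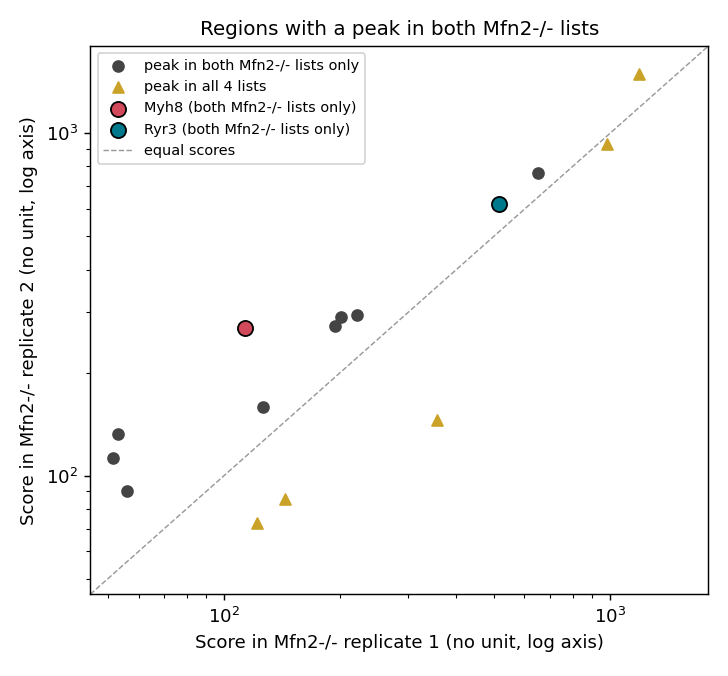
Each point is a region with a peak in both Mfn2-/- lists, plotted by its score in replicate 1 and replicate 2 (log axes), with a dashed line at equal scores. All 10 regions found in the Mfn2-/- lists only, *Myh8* and *Ryr3* among them, lie above the line, and 4 of the 5 regions found in all lists lie below it.

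Other genes of these families had no peak, which was also the case for most genes, since 407 of the 21896 protein-coding genes in the RefSeq table (1.86%) carried a peak by symbol. None of the 13 other myosin heavy chain genes examined had a peak by symbol or within its RefSeq span in any library, and the same held for *Ryr1* and *Ryr2*. At so low a share over all genes, 0 of 13 and 0 of 2 are near the background. The myosin cluster from *Myh3* to *Myh13* covers 293 kb and 6 genes, and its only peaks were the 3 at *Myh8*. The *Myh8* region lay 17.7 kb from the nearer edge of *Myh4*, the adult type IIb myosin, and 47.0 kb from that of *Myh13*, the extraocular myosin. It lay 176 kb from *Myh3*. For the slow and cardiac myosins *Myh7* and *Myh6*, on chromosome 14, the nearest peaks in any list were 1266 kb and 1237 kb away. The nearest peak to *Ryr1* was 1094 kb away and that to *Ryr2* was 902 kb away, each in Mfn2-/- replicate 2.

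Over 8 lists of 83 distinct muscle-related genes, 7 had a peak in any library, or 8.43%, and without *Myh8*, *Ryr3*, and Hif1a 4 of 80 had one, or 5%. Over all protein-coding genes of the RefSeq table, 1.86% had a peak by symbol. Of 21 genes of excitation-contraction coupling, which links the membrane signal to calcium release, 2 had a peak. They were Cacna2d1, a calcium channel subunit, with a score of 56.2 in wild-type replicate 1, and Trdn, which encodes the ryanodine receptor partner triadin, with 50.6 in Mfn2-/- replicate 1. Of 11 developmental contractile and junction genes, only Ncam1, an adhesion molecule of immature fibers, had a peak, with 53.6 in wild-type replicate 2. Of 11 adult fast fiber genes, only Myl1, a fast myosin light chain, had a peak, with 54.1 in wild-type replicate 1. Each of these 4 peaks was found in 1 library, close to the cutoff. The Trdn and Myl1 peaks were classed as distal intergenic, and the Cacna2d1 and Ncam1 peaks as intronic. The shares count peaks of any class by symbol and were not adjusted for gene length. None of 10 myogenic factors and none of 9 calcineurin and NFAT genes had a peak. Of 8 genes of the HIF pathway and histone demethylases, Hif1a alone had peaks, in all 4 libraries. The Hif1a peak classed as promoter scored 247 (replicate 1) and 237 (replicate 2) for wild-type, against 980 and 932 for Mfn2-/-. The distal intergenic Hif1a peak scored 532 (replicate 1) and 547 (replicate 2) for wild-type, against 1188 and 1494 for Mfn2-/-. Depth is unknown, and whether wild-type signal at *Myh8* or *Ryr3* lay below the cutoff was not tested. Among these 83 genes, *Myh8*, *Ryr3*, and Hif1a were the only ones with a peak in more than 1 library. For *Myh8* and *Ryr3* this follows from how they were chosen, and the lists were drawn up with earlier results known, so it is not a finding.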

How the data were processed

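NFATC2 ChIP-seq libraries from 14-dpi TA myofibers were assigned to genotypes and replicate numbers from the sample titles. Per the submitters' processing notes, the authors used BWA 0.7.5, mm10, MACS, and deepTools 3.5.0. The MACS version, the control library, and the rule by which called peaks were left out are not given in the sources used here. The value the authors deposited for each peak is a score, −log10 of the p-value multiplied by 10. The lists hold no counts, so intervals that need depth are not given. A score of 50 stands for a p-value of 1e-05.

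The genes, lists, and alternatives were chosen with earlier results of these data known. Named are *Myh8*, *Ryr3*, and genes of the Myh and Ryr families and of 8 muscle lists where they had a peak. Among regions found in both Mfn2-/- lists and no wild-type list, at most 3 per gene nearest in mean score are also named. Peaks sharing at least 1 bp were joined. No test between genotypes was made, since the choice of genes used that contrast, and replicate spread is given as SD. RefSeq tables of GRCm38.p6 gave gene spans and promoter windows. Of 618 symbols in the lists, 577 matched, and all 6 genes of the myosin cluster had a window. Motifs were searched on both strands. The joining of peaks was tested on simulated data. Alternatives were a score filter, merging, other overlap rules, other divisors and ranks, and leaving out each library. Python 3.11.15, numpy 2.4.6, pandas 2.3.3, and matplotlib 3.10.9 were used.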

Additional observations from a re-analysis of the deposited data

How the results depend on the processing

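Both genes remained in the class found in the Mfn2-/- lists only under each of the 8 alternatives run for it, a result that the choice of the genes favors. That class held 8 regions when peaks scoring below 54.7, the median over the lists, were dropped, with peaks within 1 kb merged, with an overlap of 50% of both peaks, and with peaks within 1 kb counted as shared. With 1 library left out it held 10 to 152 regions, the high values (152 without Mfn2-/- replicate 1, 114 without Mfn2-/- replicate 2) arising because 1 peak then suffices. The number of member peaks was 4 after merging and 2 to 5 with 1 library left out. Assignment by gene span, chosen after the data were seen, gave 5. Divided by the mean of the regions found in all 4 lists instead of the list median, the mean relative score fell from 3.46 to 0.349 at *Myh8* and from 10.2 to 1.03 at *Ryr3*, by construction, since those regions include Hif1a. The mean share of a list's peaks scoring at least as high as *Myh8* was 8.0%, and 14.4% when score per kb was ranked. In replicate 1 the first share used the *Myh8* peak with a score of 113. The second used the narrower one, with a score of 90.0 and 122 per kb. The *Ryr3* rank did not move beyond the replicate spread. Assignment to the nearest start was not run, because the RefSeq gene spans used here lack strand and the promoter windows include none for *Ryr3*. No paired analysis was possible because the wild-type lists hold no value at either gene, so that no difference within a replicate number can be formed. In the *Myh8* window the MEF2 and hypoxia motifs went from 0 matches to 1 each with the other letters, chosen after the data were seen. Unknown depth limits every comparison of scores between libraries.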

Other observations

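A peak in wild-type replicate 2 annotated to Aven, from 112615804 to 112616434 on chromosome 2, lay 14.9 kb beyond the lower edge of *Ryr3*. Its score was 52.3, rank 154 of 212, and it was 558 kb from the *Ryr3* region of the Mfn2-/- libraries. It was chosen after its value was seen.

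The edges of the 10 regions found in the Mfn2-/- lists only were compared between replicates. The larger of the start and end differences was 62 bp at *Myh8*, the second smallest of the 10, and 191 bp at *Ryr3*, the seventh. The median was 171.5 bp and the range 36 bp to 2157 bp. At the 5 regions with a peak in all 4 lists, the same measure between the Mfn2-/- replicates had a median of 259 bp and a range from 28 bp to 310 bp. Among the 10, *Myh8* thus had the second closest edges and the second largest ratio of score, after Tcte2 with 2.49. The *Myh8* edges come from the outer span of both replicate 1 peaks, but the ratio uses only the higher of the 2.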
